A study of Arabidopsis thaliana with 15 samples.

Results

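The subunits and antenna proteins of the photosynthetic complexes that are encoded in the nucleus of Arabidopsis thaliana were followed across mutants of the gene pair RPS6A and RPS6B, from which the 40S ribosomal protein eS6 is made. The set was fixed by identifier: 46 genes for the light-harvesting proteins (LHCA and LHCB), photosystem I (PSA), photosystem II (PSB), the Rieske protein and plastocyanin (PETC and PETE) and the gamma and delta subunits of the chloroplast ATP synthase (ATPC1 and ATPD). Of these, 45 had a row among the 21777 genes of the expression table, and all 45 reached the mean of at least 10 normalized counts required for testing. LHCB1.5 (AT2G34420) was not analysed here.

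Light-harvesting proteins bind chlorophyll and pass the energy of light to photosystems II and I, which move electrons from water to ferredoxin through the cytochrome complex and plastocyanin, and the ATP synthase uses the proton gradient that results. The reaction centres combine subunits made in the chloroplast with subunits that are encoded in the nucleus, translated in the cytosol and imported. In leaves the nuclear genes are among those with the most mRNA, they respond to light, to the circadian clock and to signals from the chloroplast, and many exist in several copies.

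Ribosomal-RNA-depleted RNA was sequenced from shoots of seedlings 12 days old, grown in cycles of 16 h light and 8 h dark, and each of 5 genotypes gave 3 libraries. Wild type (WT) was set beside rps6a and rps6b, which are single mutants, and beside eS6A-HA and eS6A-Δ6SA, in which both genes are mutated and a transgene of that name is present. The labels do not spell out HA or Δ6SA, the transgene promoters or the number of transgenic lines, and nothing says that replicates came from separate cultures, so p-values measure only the spread between these libraries. Values are the authors' normalized counts, that is reads divided by a size factor per library.

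Libraries held 5726410 to 10009723 gene reads, of which 2717321 to 4278582 came from nuclear genes. The targeted genes matched the labels: RPS6A lay at 60.5 to 85.5 normalized counts in rps6a against 824 to 1062 in WT, and RPS6B at 253 to 276 in rps6b against 899 to 978. The other gene of the pair lay above WT in each single mutant, RPS6A at 1579 to 1800 in rps6b and RPS6B at 1190 to 1250 in rps6a. In the transgenic plants RPS6B lay at 58.4 to 95.9, while RPS6A, where reads of an eS6A transgene can also be counted, lay at 1765 to 1879 in eS6A-HA and at 1112 to 1385 in eS6A-Δ6SA. Leaf markers (5 of 5 tested) summed to 80529 to 111455 normalized counts over the 15 libraries, and root markers, of which 6 of 10 were in the table and none reached the mean for testing, summed to 14.5 to 24.2 in rps6a, 0 to 8.58 in WT and 2.06 to 10.8 in the other genotypes.

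Reads of the 45 genes made up 12.2% to 13.3% of nuclear reads in WT. The share was 11.1% to 11.4% in the rps6a libraries and 11.6% to 12.4% in those of rps6b. It was 12.6% to 13.4% for eS6A-HA and 13.5% to 13.7% for eS6A-Δ6SA. By this measure the 3 rps6a libraries lay below the other 12, and the 3 eS6A-Δ6SA libraries lay above the other 12. The rank of rps6a depended on the denominator. Of all gene reads, plastid reads included, the 45 genes took 5.20% to 5.38% for rps6a, which overlapped WT (5.00% to 5.33%). With that denominator eS6A-HA had the lowest mean share (4.96%, range 4.82% to 5.06%). Libraries of rps6b had 5.01% to 5.30%, and eS6A-Δ6SA was again highest (5.60% to 5.78%). Per kilobase of exon the mean levels over all libraries ran from 43.8 for LHCB4.3 to 47557 for LHCB1.3. The median member of LHCII, the main trimeric antenna of photosystem II, was at 11287 per kilobase, that of LHCI at 10609, that of the minor antenna at 7169, that of photosystem I at 5789, that of photosystem II at 5280, and that of the electron transport and ATP synthase group at 2469.

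The members that differed most were an antenna pair that fell (LHCB2.1 and LHCB2.2) and a rare copy that rose (LHCB4.3), and LHCB4.3 is set here beside its abundant copies LHCB4.1 and LHCB4.2. Their promoters, shown because these are the genes on which the results below turn, are the 250 bases before the annotated gene start in the RefSeq genome TAIR10.1, 5′ to 3′ on the strand of the gene. The authors' build was TAIR10, per the submitters' processing notes. Capitals mark the searched motifs: GATAAG (I-box), CACGTG (G-box), CCAATC and TATAAA, on either strand. Those of LHCB2.1 (chr2:1824481-1824730) and LHCB2.2 (chr2:1800473-1800722) lie on the minus strand, and those of LHCB4.1 (chr5:208616-208865), LHCB4.2 (chr3:2717307-2717556) and LHCB4.3 (chr2:16745378-16745627) on the plus strand.
LHCB2.1: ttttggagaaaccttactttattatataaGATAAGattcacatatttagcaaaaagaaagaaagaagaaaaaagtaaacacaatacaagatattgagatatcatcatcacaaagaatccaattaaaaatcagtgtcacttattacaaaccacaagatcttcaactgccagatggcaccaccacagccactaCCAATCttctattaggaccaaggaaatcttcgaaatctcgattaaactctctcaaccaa
LHCB2.2: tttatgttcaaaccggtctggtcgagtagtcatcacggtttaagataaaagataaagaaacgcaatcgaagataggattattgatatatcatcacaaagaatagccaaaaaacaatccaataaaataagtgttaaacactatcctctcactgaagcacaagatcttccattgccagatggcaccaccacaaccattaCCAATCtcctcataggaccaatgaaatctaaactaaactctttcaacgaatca
LHCB4.1: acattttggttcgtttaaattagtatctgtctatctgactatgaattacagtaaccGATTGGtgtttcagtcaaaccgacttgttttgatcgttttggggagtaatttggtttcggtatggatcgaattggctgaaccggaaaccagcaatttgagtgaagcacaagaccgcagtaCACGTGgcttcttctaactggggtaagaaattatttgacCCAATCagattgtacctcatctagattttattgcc
LHCB4.2: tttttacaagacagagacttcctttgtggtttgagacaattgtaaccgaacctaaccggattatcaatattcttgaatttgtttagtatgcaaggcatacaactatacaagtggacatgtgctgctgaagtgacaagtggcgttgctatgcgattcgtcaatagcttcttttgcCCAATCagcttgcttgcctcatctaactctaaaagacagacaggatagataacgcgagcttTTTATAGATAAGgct
LHCB4.3: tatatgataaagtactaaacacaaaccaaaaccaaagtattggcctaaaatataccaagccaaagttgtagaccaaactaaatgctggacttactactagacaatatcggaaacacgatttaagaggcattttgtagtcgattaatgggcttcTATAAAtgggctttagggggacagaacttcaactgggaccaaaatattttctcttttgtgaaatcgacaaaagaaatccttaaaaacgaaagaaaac

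CCAATC stood in the windows of LHCB2.1, LHCB2.2, LHCB4.1 and LHCB4.2 and not in that of LHCB4.3, which held TATAAA alone. Over all 45 genes CCAATC was found in 28.9% of promoters against 10.6% of all 20239 promoters of the same length, the G-box in 22.2% against 7.54%, and the I-box in 24.4% against 12.2%. The letters TATAAA were in 42.2% against 46.0%, and GGTTAA, a GT1 motif, in 15.6% against 15.2%. AAAAATCT, a form of the site bound by the clock protein CCA1, was in 11.1% against 6.74%, its other form AACAATCT in 2.22% against 1.77%, and the evening element AAATATCT in 2.22% against 4.93%. In LHCB4.2 the TATAAA and GATAAG matches adjoin. A match is a description of the letters only.

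In rps6a, 29 of the 45 genes fell and 0 rose against WT on the authors' scale (limma on log2 of the normalized count + 1, Benjamini-Hochberg adjusted p under 0.05 over the 16335 genes tested), whereas scaling by the spike-in RNAs gave 5 higher and 1 lower, beside 35.1% of all genes higher and 1.82% lower on that scale. The background of genes called lower was 10.8% of all genes tested and 35.3% of the 1039 nuclear genes with a mean of at least 500, against 64.4% of the photosynthesis genes. The background of genes called higher was 10.4% and 15.9%. The 1039 genes include 44 of the 45 photosynthesis genes and were not matched to them in level. The median log2 fold change of the 45 genes was -0.25, with 44 estimates below 0. By complex, the genes that fell on the authors' scale were 7 of 8 in LHCII, 3 of 5 in the minor antenna, 3 of 4 in LHCI, 5 of 12 in photosystem I, 6 of 11 in photosystem II and 5 of 5 in the electron transport and ATP synthase group. Plastid identifiers took 52.0% to 52.5% of gene reads in rps6a against 58.7% to 59.7% in WT, and the part of this in the result was not tested. In bulk tissue, fewer cells of a type and less RNA per cell cannot be told apart.

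Spike-in scaling shifted the median of all genes by 0.35 in rps6a against WT, and the median of the photosynthesis genes moved from -0.25 to 0.11. Relative to all genes the photosynthesis median was thus -0.23 under the spike-ins and -0.24 as deposited. A scaling moves all genes of a library alike, so these values could hardly differ, and the spike-ins do not test the relative fall. The 1039 nuclear genes with a mean of at least 500 had a median of -0.11 as deposited, so part of the shift was shared by abundant genes. Under the spike-ins the gene called lower was LHCB2.1, and those called higher were LHCB1.2 (0.26), LHCB4.3 (0.71), PSBQ1 (0.31), PSBQ2 (0.30) and PSBTN (0.33). Estimates stayed below 0 for 11 of the 45 genes, namely LHCB1.4, LHCB2.1, LHCB2.2, LHCB2.3, LHCB4.2, LHCA4, PSBO2, PSBR, PSBY, PETE1 and PETE2, and turned positive for the other rps6a falls given here on the authors' scale. None of the 12 photosystem I genes stayed below 0. Scaling to the sum of nuclear reads left 14 genes lower and 1 higher in rps6a, beside 7.02% and 15.3% of all genes. Upper-quartile scaling left 20 lower, beside 8.07% of all genes.

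**Figure D1:**
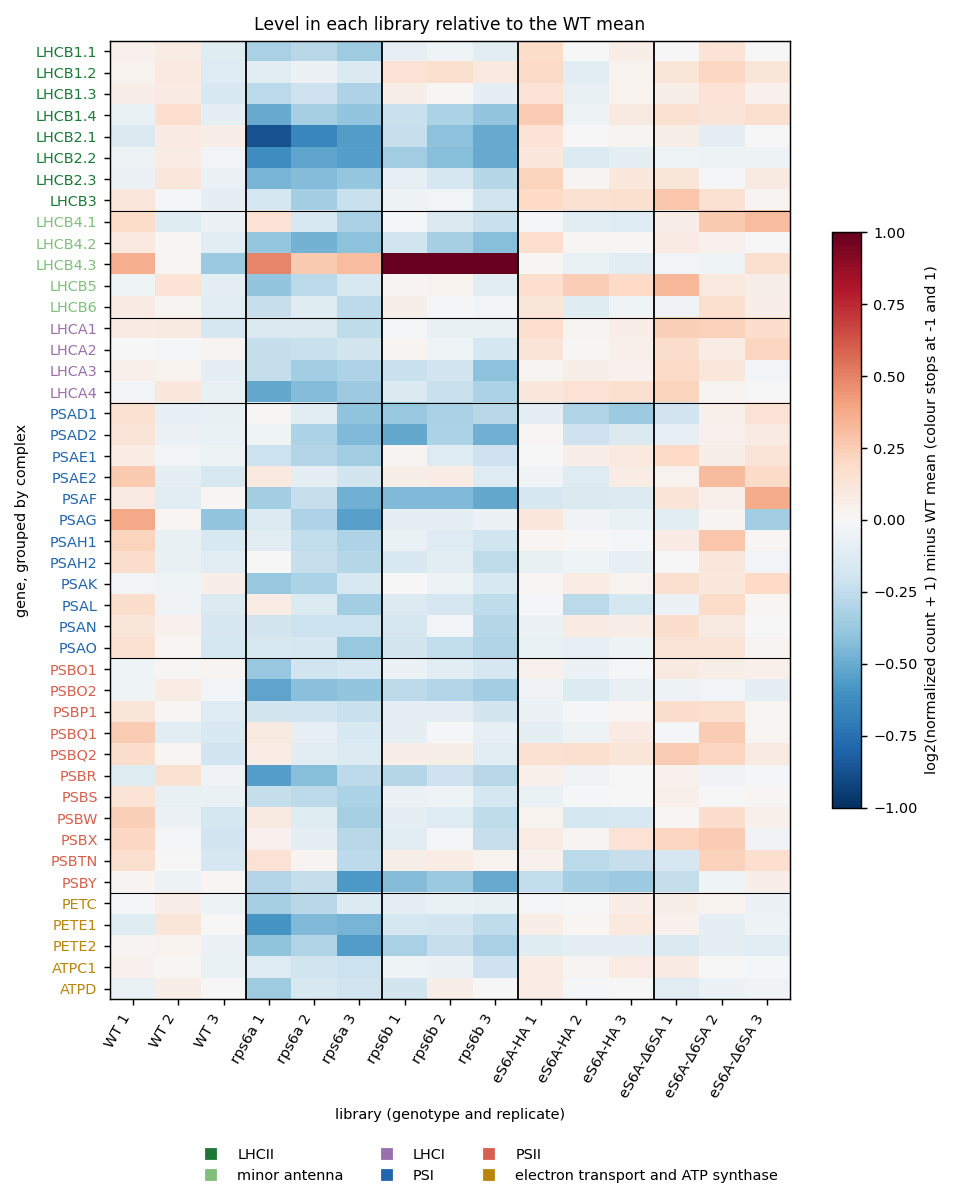
Each row is a photosystem, antenna or electron transport gene, and each column a library. Colour gives log2(normalized count + 1) minus the WT mean. Blue fills most rows of rps6a on this scale, under which 29 genes were called lower (5 higher and 1 lower under spike-in scaling), and LHCB4.3 stands out in red in the 3 rps6b libraries.

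Among the LHCII genes, LHCB2.1 (AT2G05100) lay at 13614, 15984 and 15783 normalized counts in WT, at 8247, 9599 and 10219 in rps6a and at 12881, 11336 and 10635 in rps6b. It lay at 16575, 15105 and 15336 in eS6A-HA and at 15701, 14115 and 15151 in eS6A-Δ6SA. All rps6a and rps6b libraries were below all libraries of the other 3 genotypes, and those of rps6a below those of rps6b. LHCB2 proteins are the LHCII subunits whose phosphorylation moves antenna between the photosystems. The log2 fold change of LHCB2.1 against WT was -0.70 ± 0.08 (SE, adjusted p = 4.95e-08) in rps6a and -0.38 ± 0.08 (adjusted p = 0.000495) in rps6b. In rps6a it stayed called under spike-in scaling, at -0.33 with an adjusted p of 0.0314.

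LHCB2.2 (AT2G05070) had means of 14452 ± 683 normalized counts (SD, n = 3) in WT, 9751 ± 316 in rps6a and 10738 ± 578 in rps6b, with log2 fold changes of -0.57 and -0.43 (adjusted p = 6.95e-08 and 9.49e-06). LHCB2.1 and LHCB2.2 share 15.3% and 19.1% of their stretches of 75 bases with each other, so the split of reads between them is uncertain. Summed over the 3 LHCB2 genes, WT had 38397 to 43378 normalized counts, rps6a 25828 to 28671, rps6b 30051 to 34865, eS6A-HA 39760 to 45262 and eS6A-Δ6SA 39223 to 41923. The sums of the single mutants lay below those of the other 3 genotypes with no overlap, whereas under spike-in scaling rps6a (29801 to 36296) overlapped WT (34576 to 42906). LHCB2.3, whose reads overlap an antisense neighbour, had a log2 fold change of -0.43 in rps6a (adjusted p = 1.6e-05) and was not called in rps6b.

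LHCB1.3 (AT1G29930), the member with the highest mean level, lay at 62317, 63082 and 53594 normalized counts in WT, at 49235, 51419 and 48158 in rps6a and at 61869, 60053 and 55954 in rps6b. It lay at 65423, 56539.5 and 61011 in eS6A-HA and at 61883, 65618 and 61267 in eS6A-Δ6SA. The rps6a libraries were the lowest, and those of the other 4 genotypes overlapped. The log2 fold change was -0.26 ± 0.07 in rps6a (adjusted p = 0.00313) and -0.01 ± 0.07 in rps6b (adjusted p = 0.961). The sum of the 4 LHCB1 genes, which share stretches of sequence, was 83.2% of the WT mean in rps6a (107% under spike-in scaling) and 98.3% in rps6b. Of the 4, LHCB1.2 was not called in rps6a (-0.10), and LHCB1.4 alone fell in rps6b (-0.31, adjusted p = 0.00286). LHCB3, the third LHCII type, fell by 0.25 on the log2 scale in rps6a and was not called in rps6b.

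The minor antenna proteins join the LHCII trimers to the photosystem II core. LHCB5 (AT4G10340) lay at 12783, 14424 and 12339 normalized counts in WT, at 9979, 10919 and 11765 in rps6a and at 13392, 13492 and 12196 in rps6b. It lay at 14794, 15582 and 15101 in eS6A-HA and at 16571, 14089 and 13701 in eS6A-Δ6SA. The rps6a libraries lay below all others, and its log2 fold change against WT was -0.28 ± 0.08 (adjusted p = 0.00677). LHCB6 fell in rps6a too (-0.20, adjusted p = 0.0387).

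LHCB4.3 (AT2G40100) moved the other way from most of the set. It lay at 64.0, 49.9 and 38.1 normalized counts in WT, at 70.1, 59.8 and 61.8 in rps6a and at 109, 103 and 99.7 in rps6b. It lay at 50.4, 47.3 and 46.1 in eS6A-HA and at 48.6, 48.1 and 55.7 in eS6A-Δ6SA. The 3 rps6b libraries were above all 12 others, while WT and rps6a overlapped. The log2 fold change was 1.05 ± 0.17 in rps6b (adjusted p = 1.02e-05) and stayed called under each alternative that tested it, at 0.87 to 1.23. In rps6a it was 0.36 ± 0.17 (adjusted p = 0.133), and 0.71 with an adjusted p of 0.00285 under spike-in scaling. LHCB4.3 shares no stretch of 75 bases with another gene and overlaps none.

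Its abundant copies differed from it and from each other. LHCB4.2 (AT3G08940) had means of 8684 ± 645 normalized counts in WT, 6465 ± 206 in rps6a and 6969.8 ± 558 in rps6b, and fell in both mutants (-0.42 and -0.32, adjusted p = 2.77e-05 and 0.00106). LHCB4.1 (AT5G01530) had means of 12326 ± 1396, 11455 ± 1921 and 11262 ± 825 and was called in neither. The log2 ratio of LHCB4.1 to LHCB4.2, which does not depend on the size factor, was 0.50 ± 0.12 in WT, 0.81 ± 0.22 in rps6a and 0.69 ± 0.01 in rps6b. The ratios of either mutant did not overlap those of WT (exact two-sided permutation p = 0.1, the smallest that 3 against 3 allows, and 0.356 adjusted over the 32 ratio tests).

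**Figure D2:**
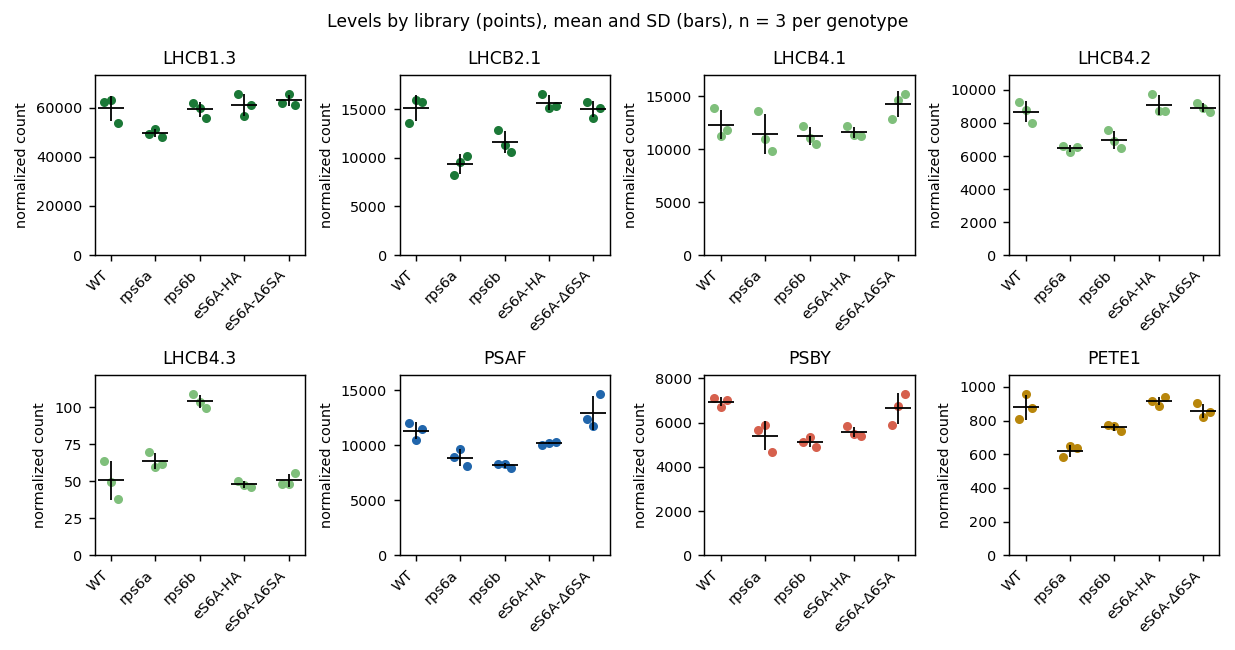
Normalized counts of 8 genes in each of the 15 libraries, with the mean and SD of each genotype (n = 3), on linear axes that start at 0. LHCB2.1 and LHCB4.2 are low in both single mutants, PETE1 is lowest in rps6a, and LHCB4.3 is at 99.7 or more in rps6b and at 70.1 or less elsewhere. Under spike-in scaling rps6a stays below WT for LHCB2.1 with a call, for LHCB4.2 and PETE1 without one.

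LHCI, the antenna belt of photosystem I, has 4 main genes. LHCA4 (AT3G47470) lay at 19519, 21312 and 18829.5 normalized counts in WT, at 13949.7, 14713 and 15474 in rps6a and at 17998, 17024 and 15933 in rps6b. It lay at 21538, 21959 and 22168 in eS6A-HA and at 23136, 20258 and 19812 in eS6A-Δ6SA. Each rps6a library was below each rps6b library, and both mutants were below the other genotypes, with log2 fold changes against WT of -0.43 ± 0.07 (adjusted p = 9.49e-06) and -0.23 ± 0.07 (adjusted p = 0.0133). LHCA3 fell in both mutants (-0.30 and -0.27), LHCA2 fell in rps6a (-0.21), and LHCA1 was called in neither.

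In photosystem I, PSAF (AT1G31330), the subunit that docks plastocyanin, lay at 11979, 10489 and 11475 normalized counts in WT, at 8934, 9630.2 and 8095 in rps6a and at 8318, 8329 and 7937 in rps6b. It lay at 10060.3, 10242 and 10254 in eS6A-HA and at 12356, 11724 and 14639 in eS6A-Δ6SA. Both single mutants were below the other 3 genotypes, and eS6A-Δ6SA was above eS6A-HA, with no overlap. Against WT the log2 fold change was -0.35 ± 0.08 in rps6a (adjusted p = 0.000656) and -0.46 ± 0.08 in rps6b (adjusted p = 1.43e-05). PSAD2 (AT1G03130), a copy of the stromal subunit that docks ferredoxin, had means of 6680.1 ± 523 in WT, 5579.9 ± 806 in rps6a and 4935 ± 367 in rps6b, and fell in both (-0.27 and -0.44, adjusted p = 0.0221 and 0.000225).

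The other photosystem I calls were falls of PSAE1 (-0.29) and PSAK (-0.28) in rps6a, of PSAD1 (-0.33) in rps6b and of PSAO, a subunit at the LHCII docking side, in both (-0.23 and -0.24). PSAE2, PSAG, PSAH1, PSAH2, PSAL and PSAN were called in neither, with estimates from -0.33 for PSAG to -0.06 for PSAE2 in rps6a. PSAG, PSAH1 and PSAE1 overlap a gene on the opposite strand over 57.4%, 48.1% and 26.7% of their stretches of 75 bases, and since the use of strand in counting is not given in the sources used here, their values may include reads of that gene.

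In photosystem II, PSBR (AT1G79040), a small lumenal subunit, lay at 18804, 22675 and 19901 normalized counts in WT, at 13952, 15189 and 17034 in rps6a and at 16712, 17713 and 16809.6 in rps6b. It lay at 21137, 19909 and 20365 in eS6A-HA and at 21048, 19876 and 20125 in eS6A-Δ6SA. Both mutants lay below WT with no overlap, and the log2 fold changes were -0.41 ± 0.07 (adjusted p = 3.79e-05) and -0.26 ± 0.07 (adjusted p = 0.007). PSBO2 (AT3G50820), the minor copy of the protein that stabilizes the manganese cluster, had means of 7593 ± 327 in WT, 5565 ± 271 in rps6a and 6153 ± 187 in rps6b, with log2 fold changes of -0.45 and -0.30 (adjusted p = 2.99e-06 and 0.000704). Its main copy PSBO1 fell in rps6a (-0.25, adjusted p = 0.00437) and was not called in rps6b (-0.11).

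The log2 ratio of PSBO1 to PSBO2 was 1.32 ± 0.06 in WT, against 1.52 ± 0.04 for rps6a, 1.51 ± 0.01 for rps6b, 1.39 ± 0.01 for eS6A-HA and 1.44 ± 0.03 for eS6A-Δ6SA. Every library of the 4 other genotypes was above every WT library (exact two-sided permutation p = 0.1 for each, adjusted 0.356). In eS6A-HA the margin was small, with a lowest ratio of 1.377 against a highest of 1.375 in WT. Of the 32 ratio comparisons over 8 pairs, 9 did not overlap WT: these 4, the LHCB4 pair in both single mutants, PSAD1 to PSAD2 in rps6a (0.10 above WT) and in eS6A-HA (-0.14), and PETE1 to PETE2 in eS6A-HA (0.16 above). None passes the adjustment. The 4 comparisons of a pair share the same WT libraries, and the share of other gene pairs without overlap was not counted. No excess can be read from the 9. Without WT replicate 1 the number was 14, but with fewer libraries a lack of overlap comes about more easily, so the counts are not comparable.

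PSBY (AT1G67740), a small membrane subunit, lay at 7097, 6719 and 7025 normalized counts in WT, at 5653, 5890.4 and 4665 in rps6a and at 5144, 5368 and 4901 in rps6b. It lay at 5848, 5495 and 5389 in eS6A-HA and at 5899, 6748 and 7284 in eS6A-Δ6SA. All libraries of rps6a, rps6b and eS6A-HA were below those of WT, while eS6A-Δ6SA overlapped WT. The log2 fold change was -0.37 ± 0.08 in rps6a (adjusted p = 0.000682) and -0.44 ± 0.08 in rps6b (adjusted p = 8.33e-05). PSBP1 of the oxygen-evolving complex and PSBS, the protein of energy-dependent quenching, fell in rps6a (-0.20 and -0.27). PSBQ1, PSBQ2, PSBW, PSBX and PSBTN were called in neither mutant.

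In the electron transport and ATP synthase group, PETE2 (AT1G20340), the main plastocyanin gene, lay at 13984, 14077 and 13154 normalized counts in WT, at 10407, 11147 and 9334 in rps6a and at 10944, 11678 and 10960.2 in rps6b. It lay at 12638, 12892 and 12899 in eS6A-HA and at 12436, 12827 and 12795 in eS6A-Δ6SA. Every library of the other 4 genotypes was below every WT library, but only the single mutants were called (-0.42 ± 0.07 and -0.30 ± 0.07, adjusted p = 9.49e-06 and 0.000979). PETE1 (AT1G76100) had means of 879.6 ± 74.9 in WT, 621 ± 34.7 in rps6a and 759.9 ± 21.3 in rps6b, and fell in rps6a (-0.50, adjusted p = 1.15e-05). PETC (-0.25), ATPD (-0.24) and ATPC1 (-0.18, adjusted p = 0.0492) fell in rps6a and were not called in rps6b.

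**Figure D3:**
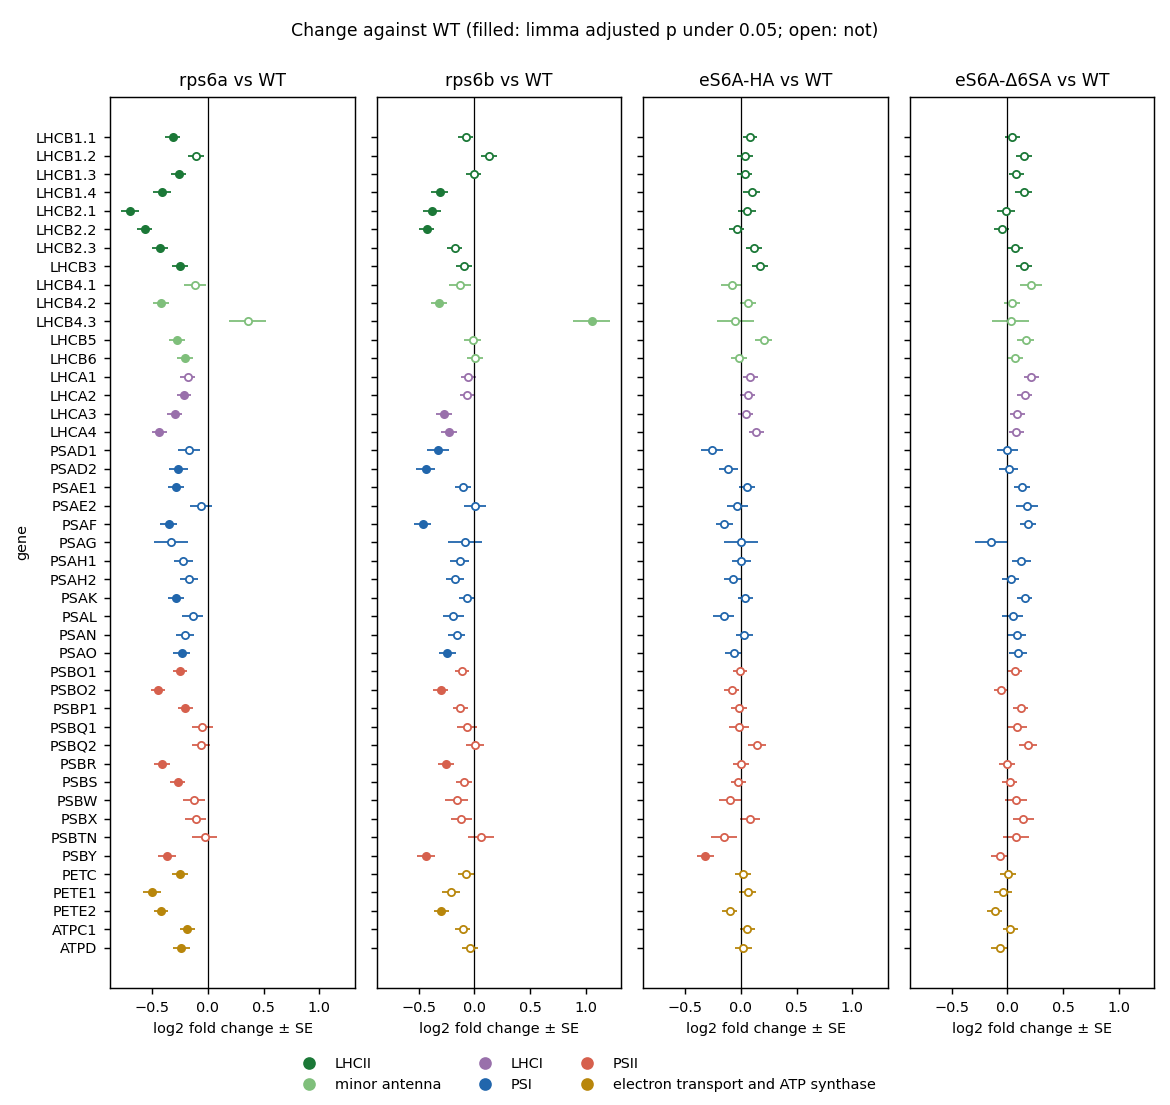
Log2 fold change against WT (x axis, with SE) of each of the 45 genes in the 4 other genotypes on the authors' scale, coloured by complex. Filled points had an adjusted p under 0.05, which held for 29 genes of rps6a, 15 of rps6b, 1 of eS6A-HA and 0 of eS6A-Δ6SA. In rps6a the count depends on the scaling, with 5 higher and 1 lower under spike-in scaling.

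In rps6b, 14 of the 45 genes fell and 1, LHCB4.3, rose. The background called lower was 11.7% of all genes and 32.5% of abundant nuclear genes, against 31.1% of the photosynthesis genes. The share that fell was thus near that of the abundant nuclear genes, a set that includes 44 of the 45. The background called higher was 11.6% of all genes and 21.3% of abundant ones. Spike-in scaling gave 12 lower and 1 higher, beside 9.10% and 6.57% of all genes. The median was -0.12, and -0.18 under spike-in scaling, where the median of all genes was -0.06. That of abundant nuclear genes was -0.07 on the authors' scale. By complex, the falls were 3 of 8 in LHCII, 1 of 5 in the minor antenna, 2 of 4 in LHCI, 4 of 12 in photosystem I, 3 of 11 in photosystem II and 1 of 5 in the electron transport and ATP synthase group.

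The direct comparison of rps6a with rps6b called 7 genes lower and 0 higher on the authors' scale, against 28 higher and 0 lower under spike-in scaling, which shifted the median of all genes by 0.41. The background called lower on the authors' scale was 1.62% of all genes and 5.00% of abundant nuclear genes, and that called higher under spike-in scaling was 42.3% of all genes. The 7 were LHCB4.3 (-0.70 ± 0.17, adjusted p = 0.0124), LHCB2.1 (-0.31), PETE1 (-0.29), LHCB5 (-0.26), LHCB1.3 (-0.26), LHCB2.3 (-0.25) and LHCB1.1 (-0.24). All 7 kept the rps6a libraries below those of rps6b. The calls depended on single libraries: 0 genes were called without rps6b replicate 1, 1 without rps6b replicate 2 or without rps6a replicate 1, 2 without rps6a replicate 2, 3 without rps6a replicate 3 and 4 without eS6A-HA replicate 3. No LHCI, photosystem I or photosystem II gene was called between the single mutants on the authors' scale, whereas spike-in scaling called 3 of 4, 9 of 12 and 9 of 11 of them higher in rps6a.

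**Figure D4:**
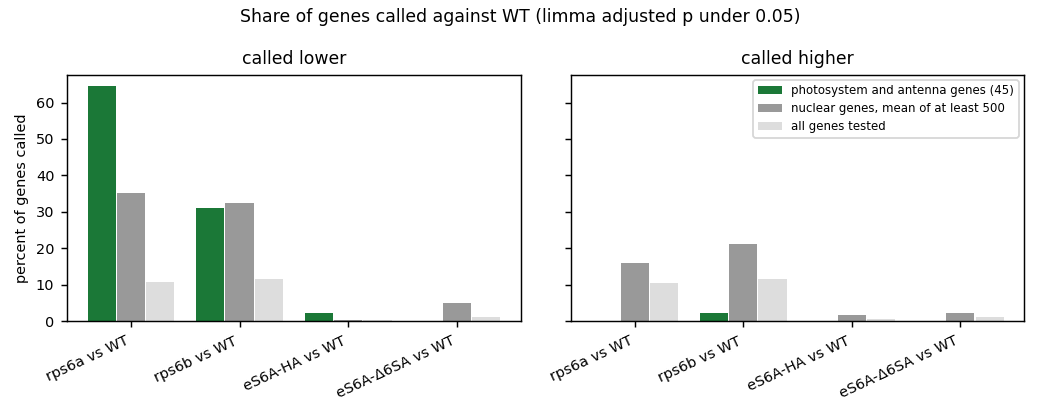
Percent of genes called lower (left) and higher (right) against WT, for the 45 photosynthesis genes, for the nuclear genes with a mean of at least 500 and for all genes tested, on the authors' scale. The nuclear genes with that mean include 44 of the 45. In rps6a 64.4% of the photosynthesis genes were called lower (1 gene under spike-in scaling) against 35.3% and 10.8%, and in rps6b 31.1% against 32.5% and 11.7%.

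In eS6A-HA, 1 of the 45 genes was called against WT, beside a background of 0.245% called lower and 0.551% called higher (0.481% and 1.83% of abundant nuclear genes). It was PSBY (-0.32 ± 0.08, adjusted p = 0.045), whose adjusted p ranged from 0.0144 to 0.243 over the alternatives. The call was lost with DESeq2, with spike-in scaling, with a minimum mean of 100, and without any of the 3 WT libraries, any of the 3 eS6A-HA libraries, rps6a replicate 2, rps6b replicate 2 or rps6b replicate 3. The median of the 45 genes was 0.00, with 20 estimates below 0 and 25 above.

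In eS6A-Δ6SA, limma, edgeR and DESeq2 each called 0 of the 45 genes against WT, beside a background of 1.33% called higher and 1.24% called lower by limma (2.41% and 4.91% of abundant nuclear genes). At an unadjusted limma p under 0.05 there were 9 genes. The share of all genes at that threshold was not counted, so no excess can be read from the 9. The lowest adjusted p was that of LHCA1 (0.22 ± 0.07, adjusted p = 0.0877). The median was 0.08, with 36 estimates above 0 and 9 below.

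The transgenic genotypes were compared with each other. Their RPS6A levels did not overlap, so the form of the transgene and the level counted at RPS6A cannot be told apart. PSAF alone was called, higher in eS6A-Δ6SA (0.34 ± 0.08, adjusted p = 0.0076), beside a background called higher of 1.23% of all genes and 2.02% of abundant nuclear genes. The call was lost without eS6A-Δ6SA replicate 3 (0.24, adjusted p = 0.129), the library with the highest PSAF level, and held in every other alternative run. The count of genes was 2 without rps6a replicate 1, 3 without eS6A-Δ6SA replicate 1 and 11, all higher, under spike-in scaling, which shifted the median of all genes by 0.21 and called 4.85% of all genes higher. LHCB4.1 had means of 11595 ± 514 in eS6A-HA and 14266 ± 1235 in eS6A-Δ6SA (0.30 ± 0.10, adjusted p = 0.12).

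Both transgenic genotypes had higher levels than rps6a on the authors' scale. Spike-in scaling called 49.6% and 14.7% of all genes lower in these comparisons, and 1.55% and 1.15% higher. Against rps6a, 27 of the 45 genes were higher in eS6A-HA (16 lower and 1 higher under spike-in scaling) and 34 in eS6A-Δ6SA (1 higher and 1 lower under spike-in scaling), and 0 were lower. The background called higher was 12.7% and 7.14% of all genes, and 38.7% and 29.2% of abundant nuclear genes, and that called lower was 10.9% and 5.77%, and 17.3% and 11.5%. LHCB2.1 rose most in both, by 0.75 ± 0.08 in eS6A-HA (adjusted p = 1.19e-08) and by 0.68 ± 0.08 in eS6A-Δ6SA (adjusted p = 1.98e-07), and stayed called under each alternative. In eS6A-HA it was followed by LHCA4 (0.57), PETE1 (0.56) and LHCB2.3 (0.55), and in eS6A-Δ6SA by LHCB1.4 (0.56), PSAF (0.54) and LHCB2.2 (0.52), none of which stayed called under spike-in scaling. Spike-in scaling shifted the median of all genes by -0.45 in eS6A-HA and by -0.24 in eS6A-Δ6SA against rps6a.

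Against rps6b, 15 genes were higher and 1 lower in eS6A-HA, and 23 higher and 1 lower in eS6A-Δ6SA, with a background called higher of 11.8% and 8.64% of all genes and 33.9% and 26.6% of abundant nuclear genes. The count in eS6A-HA was 9 higher and 1 lower under upper-quartile scaling (8.60% and 14.6% of all genes). Under spike-in scaling the count was 5 higher and 1 lower (6.10% and 8.86% of all genes). That in eS6A-Δ6SA was 34 higher and 1 lower under spike-in scaling (13.0% and 2.04% of all genes). It was 14 higher and 1 lower without rps6b replicate 3, and the same without eS6A-Δ6SA replicate 1. The gene that was lower was LHCB4.3 in both (-1.10 and -1.02, adjusted p = 5.37e-06 and 3.13e-05), beside a background called lower of 11.2% and 7.89% of all genes and 21.8% and 17.8% of abundant nuclear genes. In eS6A-HA the largest rises were LHCB2.1 (0.44), LHCB1.4 (0.41), LHCB2.2 (0.39) and LHCB4.2 (0.38). In eS6A-Δ6SA they were PSAF (0.65), LHCB1.4 (0.46), PSAD2 (0.45) and LHCB2.2 (0.38). These 4 comparisons share their rps6a or rps6b libraries with those against WT. Over the 5 genotypes together, a moderated F test called 36 of the 45 genes, against a background of 31.3% of all genes on the authors' scale. Under spike-in scaling that background was 9031 of 16335 genes. The share among abundant nuclear genes was not counted for this test, so the 36 are not set against abundant genes.

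**Figure D5:**
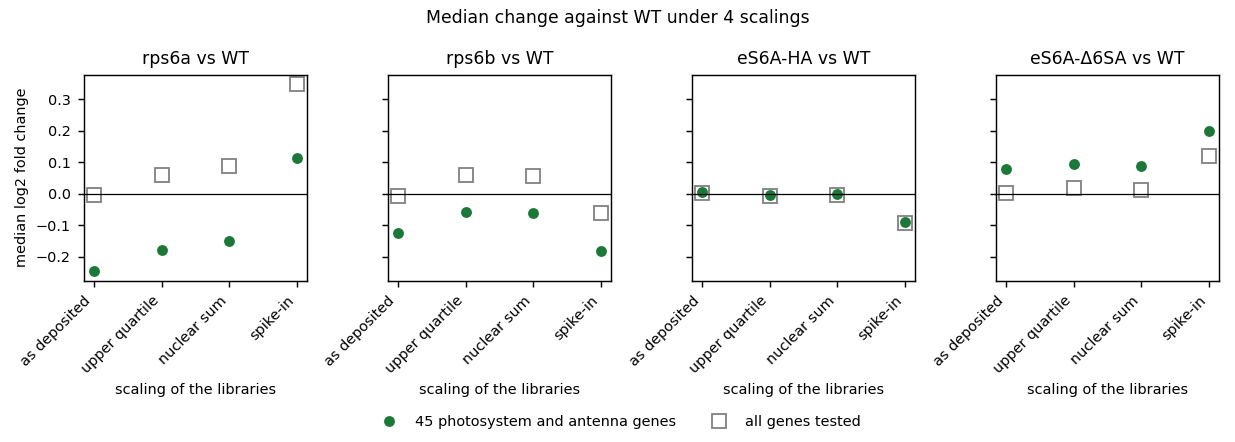
Median log2 fold change against WT (y axis) of the 45 photosynthesis genes (filled circles) and of all genes tested (open squares) under 4 scalings of the libraries (x axis). In rps6a the photosynthesis median goes from -0.25 as deposited to 0.11 under spike-in scaling. The photosynthesis median lies below that of all genes in rps6a and above it in eS6A-Δ6SA. A scaling moves all genes of a library alike, so this order could hardly change, and the 4 scalings do not test it. Nuclear genes with a mean of at least 500, not drawn, had medians as deposited of -0.11 in rps6a and -0.01 in eS6A-Δ6SA.

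Genes whose products work beside these complexes were counted in the same fits. Of 25 other thylakoid genes, 15 fell and 1 rose in rps6a, and 12 fell and 4 rose in rps6b, all on the authors' scale. Of all genes tested, 10.8% were called lower and 10.4% higher in rps6a, and 11.7% and 11.6% in rps6b. These shares were 0.245% and 0.551% in eS6A-HA and 1.24% and 1.33% in eS6A-Δ6SA, and they apply to each list below. Of abundant nuclear genes, 35.3% were called lower and 15.9% higher in rps6a, and 32.5% and 21.3% in rps6b. Under spike-in scaling 1 of the 25 was lower and 6 were higher in rps6a, and 8 were lower and 2 higher in rps6b. On that scale 1.82% of all genes were lower and 35.1% higher in rps6a, and 9.10% and 6.57% in rps6b. The largest changes in rps6a were falls of LHCA6 (-0.73), which links photosystem I to the NDH complex, and of OHP2 (-0.61), a one-helix protein of photosystem II assembly. In rps6b they were rises of ELIP1 (1.09) and ELIP2 (0.95), early light-induced relatives of the antenna proteins that are known from light stress. ELIP1 was also the gene that rose in rps6a (0.55). Under spike-in scaling LHCA6 (-0.37) and both ELIP genes stayed called in these comparisons, and OHP2 (-0.25, adjusted p = 0.155) did not. In eS6A-HA 0 of the 25 were called against WT by limma, and in eS6A-Δ6SA LFNR2, a ferredoxin-NADP reductase, rose (0.37) and FD1, a leaf ferredoxin, fell (-0.38), the latter without a call under spike-in scaling.

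Of 13 genes for assembly, antenna insertion and antenna phosphorylation, 2 fell in rps6a, STN7 (-0.34), the kinase of state transitions, and ALB3 (-0.30), the insertase for antenna proteins. The 2 were 15.4% of the 13, near the 10.8% of all genes called lower and below the 35.3% of abundant nuclear genes. In rps6b 4 fell and 1 rose, with STN7 (-0.48) and TAP38 (-0.33), the phosphatase that opposes STN7, changing most. Under spike-in scaling 2 of the 13 were higher and 0 lower in rps6a, where STN7 (0.02) and ALB3 (0.06) were not called, and 3 were lower in rps6b. Of 12 regulators of photosynthesis genes, 7 fell and 0 rose in each single mutant on the authors' scale, against 2 lower and 1 higher in rps6a and 7 lower in rps6b under spike-in scaling. The clock genes LHY (-1.08 in rps6a, -0.81 in rps6b) and CCA1 (-1.07 and -0.94) changed most, and LHY (-0.81) and CCA1 (-0.45) also fell in eS6A-Δ6SA. Under spike-in scaling LHY and CCA1 stayed called in both single mutants, and in eS6A-Δ6SA LHY (-0.69) did and CCA1 (-0.33) did not. Of 18 plastid identifiers (prefix ATCG) listed beside the nuclear genes, 17 were called lower in rps6a and 0 higher, 2 each way in rps6b, 2 higher in eS6A-HA and 0 in eS6A-Δ6SA. Under spike-in scaling 2 were lower in rps6a and 2 in rps6b, 0 were called in the transgenic genotypes, and the rps6a median went from -0.36 to -0.0041.

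Markers of some other cell types differed from WT, in the single mutants and in eS6A-Δ6SA. The summed level of 6 genes of dividing cells was 241 to 294 normalized counts in WT. Against it, rps6a had 499 to 579 (4 of the 6 called higher), rps6b 526 to 554 (5), eS6A-HA 220.1 to 259 (0) and eS6A-Δ6SA 372 to 504 (4). Of all genes tested, 10.4%, 11.6%, 0.551% and 1.33% were called higher in the same order. Both phloem and vascular markers fell in rps6a and in rps6b, with sums of 1069 to 1134 and 1222 to 1418 against 1638 to 1731 in WT, whereas under spike-in scaling 1 of the 2 was lower in each. The sums in eS6A-HA (1421 to 1599) and eS6A-Δ6SA (1280 to 1450) also lay below WT. Of the 2 markers, 0 and 1 were called lower there on the authors' scale. Neither guard cell marker was called. Of the 5 leaf markers 2 were called lower in rps6a, and 1 lower and 1 higher in rps6b, against 3 higher in rps6a and 1 lower in rps6b under spike-in scaling. Spike-in scaling called 6, 5, 0 and 4 of the dividing-cell markers higher in rps6a, rps6b, eS6A-HA and eS6A-Δ6SA. The shares of all genes called higher on that scale were 35.1%, 6.57%, 0.171% and 1.38% in the same order. The summed root markers, too low to be tested, were higher in the 3 rps6a libraries than in those of WT, at the values given above. The part of these cell types in the photosynthesis results was not tested.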

How the data were processed

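The authors deposited normalized counts (a signal: counts over a size factor) made with DESeq2 1.26.0, after alignment with STAR 2.7.6a and counting with featureCounts 2.0.0, per the submitters' processing notes, which name the build TAIR10. Per the labels' protocols, spike-in RNAs were added and sequencing was paired-end with 75 bases a read. The use of strand and any filter are not given in the sources used here. No gene in the table had reads in fewer than 3 libraries. Every positive value was a whole multiple of 1 step per library (100% within 0.01), so reads were recovered. On these edgeR called 3578 genes and DESeq2 2765 in rps6a against WT, all genes counted. Depth was 5726410 to 10009723 gene reads, and the 77 spike-in rows (4.39% to 6.08% of all reads) stayed out of the gene tests.

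Groups came from the labels. The main test was limma 3.58.1 in R 4.3.3, using trend and robust moderation, fitted to log2(normalized count + 1) of 16335 genes whose mean was at least 10. All 15 libraries entered 1 fit, two-sided p-values were adjusted within a comparison by Benjamini-Hochberg, and a gene was called at an adjusted p under 0.05. Fold changes on this scale understate those of low genes. Ratios of paralogues were compared by exact permutation tests. Alternatives were edgeR 4.0.16 and DESeq2 1.42.0 on recovered reads, 3 other scalings, pseudocounts of 0.5 and 10, no minimum mean and one of 100, only the groups compared, the replicate number as a block, and leaving out each library. Tested on simulated data for rps6a against WT, limma called 86.9% of 99 genes changed 2-fold, 39.0% of 100 changed 1.5-fold and 0.0623% of unchanged genes.

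Library by library, the text gives the member with the highest mean in each complex and the called member with the largest change per direction in each comparison. Group values are given for up to 4 called members per direction and comparison and for paralogue pairs, and the 2 largest changes for each other list. Further called members were named after their values were seen. The members and lists were chosen with earlier results of these data known. Gene identifiers (21565 of 21777), exon lengths and promoters came from RefSeq TAIR10.1, matched by locus tag.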

Additional observations from a re-analysis of the deposited data

How the results depend on the processing

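Scaling was the choice that moved the counts of called photosynthesis genes most. Spike-in scaling gave 6 genes in rps6a against WT, 28 in rps6a against rps6b, 11 in eS6A-Δ6SA against eS6A-HA, 17 in eS6A-HA and 2 in eS6A-Δ6SA against rps6a, 6 in eS6A-HA and 35 in eS6A-Δ6SA against rps6b and 0 in eS6A-HA against WT. Of the 16335 genes tested, spike-in scaling called 6024, 6949, 832, 8358, 2595, 2443, 2455 and 49 in the same order. It turned the median of the 45 genes to 0.11 in rps6a against WT, to 0.29 in rps6a against rps6b and to -0.21 in eS6A-HA against rps6a, and in rps6a against rps6b it turned LHCB2.1 to 0.11, PETE1 to 0.13 and LHCB5 to 0.16. Nuclear-sum scaling gave 15 genes in rps6a against WT and 3 in rps6a against rps6b, and upper-quartile scaling gave 10 in eS6A-HA against rps6b. Of the 16335 genes tested, 3649, 507 and 3796 were called in the same order. In eS6A-HA against WT, DESeq2 and a minimum mean of 100 each gave 0. Fitting only the groups compared gave 3 in eS6A-Δ6SA against eS6A-HA. Calls in the other gene lists depend on the scaling too. The cause was not tested.

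Leaving out each library in turn gave 22 to 32 genes in rps6a and 11 to 16 in rps6b against WT, 0 to 1 in eS6A-HA and 0 in eS6A-Δ6SA. It gave 0 to 8 in rps6a against rps6b, 0 to 3 between the transgenic genotypes, 24 to 31 and 27 to 37 in eS6A-HA and eS6A-Δ6SA against rps6a, 11 to 17 and 15 to 28 against rps6b, and 9 to 14 paralogue ratios. For the ratios, a group with a library left out fails to overlap WT more easily. The replicate numbers shared between genotypes gave no clear sign of pairs. Deviations from the group means of same-numbered libraries had correlations of -0.16 to 0.18 over 30 pairs of libraries. For libraries of unlike number they were -0.20 to 0.19 over 60 pairs. These ranges cannot show a weak shared batch. With the replicate number as a block, limma called 33 genes in rps6a and 15 in rps6b against WT and 8 in rps6a against rps6b, and 16 paralogue ratios reached an exact paired permutation p of 0.25, the smallest that 3 pairs allow. That threshold is looser than the 0.1 of the unpaired test, so the 16 cannot be set beside its count.

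In the simulation 39.0% of 100 genes changed 1.5-fold, drawn over all levels, were called, and smaller changes were not simulated. A gene without a call is not shown to be equal. The labels give no batch. The member with the lowest level, LHCB4.3, had 38.1 normalized counts in its lowest library.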
